A study of Mus musculus with 11 samples.

Results

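The RNA of 9 genes that write, erase or read DNA methylation was followed from mouse neural stem cells into cultures that had spent 4 days in one of 3 other media. The genes were Dnmt1 and Uhrf1 (maintenance of methylation), Dnmt3a and Dnmt3b (new methylation), Tet1, Tet2 and Tet3 (oxidation of methylated cytosine), and Mbd1 and Mbd2 (readers). They were taken by gene symbol, 9 of 37991 genes in the deposited table, and each symbol matched 1 row.

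The cells came from the frontal cortex of C57BL/6J mouse embryos at stage E14.5. The group NSC (3 libraries) was sampled at day 0, out of proliferation medium. At day 4 the group Astrocyte (3 libraries) had been kept in DMEM with 1% N-2, 2 mM GlutaMAX and 1% FBS (fetal bovine serum), and the group Neuron (3 libraries) in Neurobasal with 2% B-27 and 2 mM GlutaMAX. The group Oligodendrocyte (2 libraries) had received the same medium as Neuron plus T3, a thyroid hormone, at 30 ng/mL. These names stand for the medium and not for a proven cell type. No day 4 culture had stayed in proliferation medium, so change of medium and time in culture cannot be told apart in any comparison with NSC. All 3 of those comparisons share the same NSC libraries. All values are from bulk RNA, in which fewer cells expressing a gene and less RNA per cell cannot be told apart.

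As background, DNA methylation in mammals sits mostly on the cytosines of CpG dinucleotides. When DNA is replicated, UHRF1 binds the new, half-methylated CpG sites and recruits DNMT1, which copies the mark onto the new strand. DNMT3A and DNMT3B place methylation on sites that had none, and in the brain DNMT3A also methylates cytosines outside CpG. TET enzymes oxidise methylated cytosine, which can then be lost at replication or be cut out by base excision repair. MBD1 and MBD2 bind methylated CpG sites, and MBD2 does so as part of the NuRD chromatin remodelling complex.

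The start regions of the genes with the largest falls, Uhrf1 and Dnmt1, are shown because both hold a letter pattern of the kind that E2F factors, which drive genes of S phase, are known to bind. RefSeq promoter windows (GRCm38.p6, the 250 bases before an annotated start) were at hand for 7 members, 12 windows in all. They were searched on both strands for TTTCCCGC, TTTCGCGC, TTTGCCGC and TTTGGCGC. A match stood in 611 of 32851 windows of all genes (1.86%) and in 2 of the 12 member windows. Other windows of Uhrf1 and Dnmt1 held no match. The Uhrf1 window is chr17:56304063-56304312 on the plus strand, and the Dnmt1 stretch is chr9:20952824-20952853 on the minus strand, where the letters fall in an annotated exon of the gene. Both are written 5′ to 3′ with the matched letters in capitals.
Uhrf1: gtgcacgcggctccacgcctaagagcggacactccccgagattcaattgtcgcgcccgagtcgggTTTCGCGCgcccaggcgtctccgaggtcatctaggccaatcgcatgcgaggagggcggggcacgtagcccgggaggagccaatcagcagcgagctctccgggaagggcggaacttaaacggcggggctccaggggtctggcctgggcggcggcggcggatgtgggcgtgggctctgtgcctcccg
Dnmt1: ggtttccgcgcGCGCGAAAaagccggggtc
The Dnmt1 stretch carries the pattern in the reverse direction. The Uhrf1 window held 30 CpG sites at 69.6% GC, and the full Dnmt1 window with the match 26 at 68.4% GC. The median over all windows was 6 CpG and 52.4% GC. The patterns themselves are rich in G and C, and the share of matches among windows as rich in CpG was not computed. The share over all windows is thus no like measure for these 2. The most CpG-rich member window was that of Tet2, with 51 CpG, and windows of Dnmt3a reached 40. A match describes the letters only, and no binding was measured.

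The members lay on 8 chromosomes of mouse build mm9. Dnmt1 (ENSMUSG00000004099) spanned bases 20711650 to 20757317 of chromosome 9 on the minus strand, and Uhrf1 (ENSMUSG00000001228) bases 56442744 to 56462909 of chromosome 17 on the plus strand. Dnmt3a (ENSMUSG00000020661) spanned bases 3806007 to 3914443 of chromosome 12 and Dnmt3b (ENSMUSG00000027478) bases 153475186 to 153513466 of chromosome 2, both on the plus strand. Tet1 (ENSMUSG00000047146) was at 62267318 to 62361866 on chromosome 10, Tet2 (ENSMUSG00000040943) at 133126643 to 133207354 on chromosome 3 and Tet3 (ENSMUSG00000034832) at 83312367 to 83391672 on chromosome 6, all on the minus strand. Both readers were on the plus strand of chromosome 18, Mbd1 (ENSMUSG00000024561) at 74427926 to 74442339 and Mbd2 (ENSMUSG00000024513) at 70727843 to 70785785. Genes listed as overlapping Dnmt3a, Dnmt3b or Tet1 had between 0 and 0.03 CPM in every library. How reads in such overlaps were counted was not tested.

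Depth, estimated from the size of the smallest steps in the table, was 49.3 to 66.2 M (mega) reads per library, so 1 read was worth 0.0151 to 0.0203 CPM (counts per 1 M reads). The least abundant member, Dnmt3b, rested on 73 to 212 estimated reads per library, and Uhrf1 in Neuron on 164 to 253. Progenitor markers summed to 5638 to 6024 CPM in NSC, 3938 to 4380 in Astrocyte, 2747 to 3409 in Neuron and 2901 to 2976 in Oligodendrocyte, with Nes falling from 1251 CPM to 198.8, 70.4 and 419.1. Of 8, 3 were higher and 5 lower than in NSC in Astrocyte, 3 and 5 in Neuron, and 0 and 6 in Oligodendrocyte. Astrocyte markers summed to 12057 to 13560 CPM in Astrocyte, 7990 to 8696 in Neuron, 2362 to 2639 in Oligodendrocyte and 1536 to 1598 in NSC. The order of Astrocyte and Neuron came from Gfap and Aqp4, and the other 6 of 8 were called lower in Astrocyte than in Neuron (list median -0.52). Oligodendrocyte markers summed to 3063 to 3392 CPM in Neuron and 2769 to 3133 in Oligodendrocyte, against 615 to 946 in the other 2 groups. The neuron marker sum (763 to 1177 CPM in all groups) was mostly Map2. Of 6 tested neuron markers, 5 were higher in Neuron than in NSC and 0 lower, while in Astrocyte and in Oligodendrocyte 4 were higher and 2 lower. These counts depended on the scale. With quantile normalization they were 4 and 0 in Neuron, 2 and 3 in Astrocyte and 2 and 2 in Oligodendrocyte. Median-of-ratios scaling gave 3 and 2 in Astrocyte. Dcx had 1.6 CPM in NSC, 147.7 in Neuron, 124.8 in Astrocyte and 86.6 in Oligodendrocyte. Tubb3 had a mean of 3.9 CPM in NSC, 28.4 in Neuron, 41.2 (SD 13.6) in Astrocyte and 44.8 in Oligodendrocyte. Its call as lower in Neuron than in Astrocyte was lost under both other scalings and without Neuron library 2. The call of Neuron below Oligodendrocyte was lost with quantile normalization. Rbfox3, a marker of mature neurons, had 0.683 CPM in NSC, 2.34 in Neuron, 1.09 in Astrocyte and 1.33 in Oligodendrocyte. Microglia markers summed to at most 1.32 CPM in any library, with 6 or 7 of 8 genes under 0.1 CPM. Endothelial and mesenchymal markers summed to 2.29 to 2.80 CPM in NSC, 47.5 to 49.2 in Astrocyte, 36.0 to 43.5 in Neuron and 10.8 to 13.0 in Oligodendrocyte, mostly Pdgfrb at day 4, with 3 to 5 of 8 genes under 0.1 CPM. The part of these cell mixtures in the members' values was not tested.

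Differences between groups are given as log2 fold changes, the difference of mean log2(CPM + 1), from a limma model over 13342 genes and all 11 libraries. This scale understates changes of low genes. All groups share 1 estimate of the spread of a gene, so leaving out a library can also change calls in comparisons that it has no part in. A gene was called when its Benjamini-Hochberg adjusted p was under 0.05, and every adjusted p below comes from that model. Most genes differed between groups. In Astrocyte vs NSC 83.6% of tested genes were called, 48.0% higher and 35.6% lower. For Neuron vs NSC the share was 83.1%, with 43.5% higher and 39.6% lower, and for Oligodendrocyte vs NSC 80.2%, with 48.1% higher and 32.2% lower. Between day 4 media fewer genes were called. Astrocyte vs Neuron had 62.2% (40.3% higher, 22.0% lower). Oligodendrocyte had 67.5% called against Neuron (43.9% and 23.6%) and 52.2% against Astrocyte (28.7% and 23.5%).

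Against that background, 7 of the 9 members were called in each comparison with NSC, 3 higher and 4 lower every time. With median-of-ratios scaling these counts were 1 higher and 4 lower in Astrocyte, 2 and 4 in Neuron, and 2 and 4 in Oligodendrocyte, and with quantile normalization only Oligodendrocyte changed, to 2 and 4. Between day 4 media 3 members were called in Astrocyte vs Neuron (2 higher, 1 lower, but 1 higher and 2 lower under both other scalings). Oligodendrocyte had 4 called against Neuron (3 higher, 1 lower, but 3 and 2 under both other scalings) and 4 against Astrocyte (2 higher, 2 lower). Counting both directions together, the share of members called in this model was in no comparison above that of all genes. The members' median log2 fold change was 0.24, 0.07 and 0.09 in Astrocyte, Neuron and Oligodendrocyte vs NSC, against 0.15, 0.06 and 0.19 for all tested genes. Median-of-ratios scaling, which moves that centre of all genes to between -0.01 and 0.00, was run as an alternative. It also moved the share of all calls that were higher. In Oligodendrocyte vs NSC the share went from 59.9% to 49.9%, or 47.7% with quantile normalization. Astrocyte vs Neuron went from 64.7% to 52.8% or 48.5%, and for Oligodendrocyte against Neuron these shares were 65.1%, 52.5% and 48.0%.

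**Figure D1:**
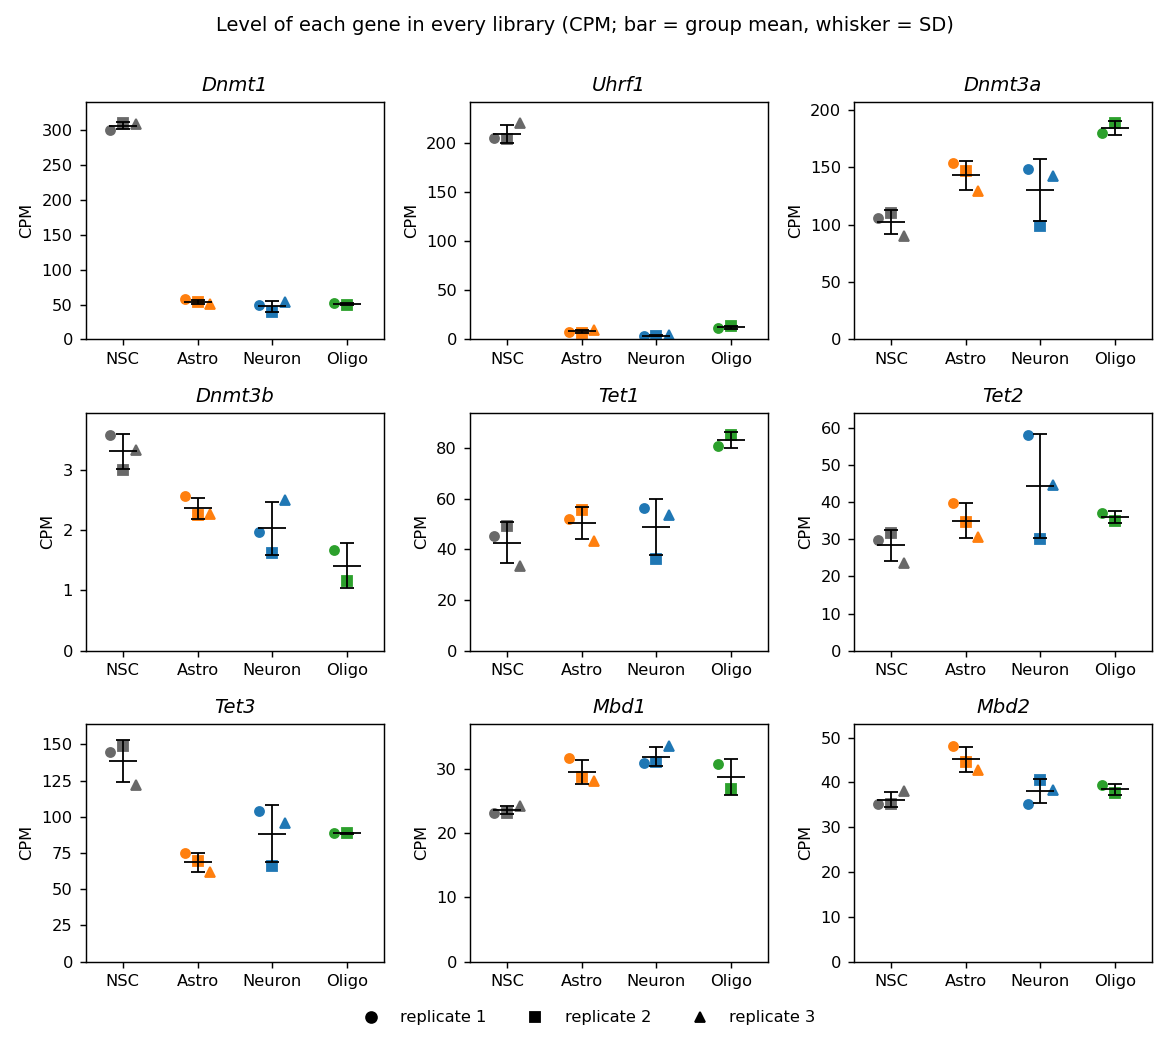
CPM of each of the 9 genes (vertical axes, linear, from 0) in the 11 libraries by group, with a point per library, a bar at the mean and a whisker of 1 SD (n = 3, or 2 for Oligodendrocyte). Uhrf1 and Dnmt1 stand far above every day 4 library in NSC, Tet1 and Dnmt3a are highest in Oligodendrocyte, and Neuron library 2 lies low for Dnmt3a and the Tet genes.

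The maintenance genes fell the most. Uhrf1, the protein that recognises half-methylated DNA behind the replication fork, had 204.5, 203.2 and 219.4 CPM in the 3 NSC libraries. It had 7.95, 6.86 and 9.5 CPM in Astrocyte, 3.84, 3.08 and 4.12 in Neuron, and 11.4 and 13.7 in Oligodendrocyte. No library of any group overlapped with those of another group. Uhrf1 was lower than in NSC by -4.54 (SE 0.113, adjusted p = 2.4e-13) in Astrocyte, -5.49 (SE 0.113, adjusted p = 5.69e-14) in Neuron and -3.96 (SE 0.126, adjusted p = 3.93e-12) in Oligodendrocyte. On this scale these are falls of 23.2-fold, 45.1-fold and 15.6-fold.

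The day 4 media also differed from each other in Uhrf1. Its order was Oligodendrocyte, then Astrocyte, then Neuron, and each step was called. Oligodendrocyte exceeded Neuron by 1.53 (adjusted p = 2.09e-07) and Astrocyte by 0.58 (adjusted p = 0.00179), and Astrocyte exceeded Neuron by 0.96 (adjusted p = 7.11e-06). With a pseudocount of 5 in place of 1 the differences from Neuron shrank to 1.01 for Oligodendrocyte and 0.591 for Astrocyte, both still called.

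Dnmt1, the maintenance methyltransferase, had 300.6, 309.4 and 308.4 CPM in NSC. In Astrocyte it had 57.3, 53.4 and 50.9 CPM, in Neuron 50.02, 38.95 and 53.85, and in Oligodendrocyte 51.9 and 49.7. All 8 day 4 libraries thus sat in a narrow band below all NSC libraries. Dnmt1 was lower by -2.49 (SE 0.095, adjusted p = 1.64e-11), -2.67 (SE 0.095, adjusted p = 8.54e-12) and -2.57 (SE 0.106, adjusted p = 5.23e-11) in Astrocyte, Neuron and Oligodendrocyte, or 5.6-fold, 6.38-fold and 5.93-fold on this scale. No day 4 medium differed from another in Dnmt1 (adjusted p 0.104 to 0.541), Astrocyte less Neuron being 0.19 (95% interval -0.02 to 0.39). Oligodendrocyte differed by 0.105 (-0.125 to 0.334) from Neuron and by -0.08 (-0.31 to 0.15) from Astrocyte. Without Neuron library 3 Astrocyte vs Neuron was called (0.28, adjusted p = 0.0215).

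Uhrf1 and Dnmt1 therefore did not keep their ratio. Per kilobase of exon (CPM divided by the exon length of the gene model), Uhrf1 stood at 1.17 ± 0.0472 times Dnmt1 in NSC (SD, n = 3). That ratio was 0.260 ± 0.0535 in Astrocyte (n = 3), 0.133 ± 0.0024 in Neuron (n = 3) and 0.425 ± 0.0662 in Oligodendrocyte (n = 2), with no overlap between any 2 groups.

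Of 9 listed partners of these proteins, 8 were tested, and 7, 6 and 7 of them were lower than in NSC in Astrocyte, Neuron and Oligodendrocyte, with median log2 fold changes of -2.17, -2.52 and -2.48. Hells, a chromatin remodeller needed for methylation of repeats, went from 92.0 ± 5.95 CPM in NSC to 4.82 ± 0.396, 2.17 ± 0.375 and 6.53 ± 0.686 in Astrocyte, Neuron and Oligodendrocyte, changes of -4.00, -4.88 and -3.63. Lig1, the ligase of the lagging strand, changed by -3.69, -3.36 and -3.41, and Pcna, the sliding clamp, by -2.56, -2.57 and -2.60. Cdca7, which works with HELLS, fell too, with -2.37, -2.81 and -2.59. Zbtb24, a zinc finger protein known to activate Cdca7, was called higher, by 0.45, 0.49 and 0.40, but with quantile normalization only in Neuron (0.153, adjusted p = 0.0847 in Astrocyte and 0.08, adjusted p = 0.413 in Oligodendrocyte). Median-of-ratios scaling also lost the Oligodendrocyte call (0.204, adjusted p = 0.0504). Uhrf2, the relative of Uhrf1, was lower in Astrocyte (-0.47) and Oligodendrocyte (-0.77) but had 0.12 in Neuron (adjusted p = 0.128), where quantile normalization called it higher (0.216, adjusted p = 0.00848). Dnmt3l, the germline cofactor of DNMT3A, was too low to test. Zbtb24, Uhrf2 and Dnmt3l were singled out after their values were seen.

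Genes of the cell cycle moved in the same direction. All 12 listed S phase genes and all 10 mitosis genes were lower than in NSC in each of the 3 media. The S phase genes summed to 1590 to 1669 CPM in NSC, 133 to 137 in Astrocyte, 111 to 120 in Neuron and 177 to 180 in Oligodendrocyte, the same order of groups as for Uhrf1. The mitosis genes summed to 2586 to 2659, 82.2 to 97.5, 42.4 to 63.2 and 99.4 to 101.3 CPM in NSC, Astrocyte, Neuron and Oligodendrocyte. Their median log2 fold changes against NSC were -3.55, -4.09 and -3.10 for S phase and -4.62, -5.22 and -4.55 for mitosis. These counts of S phase and mitosis genes were the same under both other scalings and without Neuron library 2. The part of fewer dividing cells in the fall of Uhrf1, Dnmt1 and their partners was not tested.

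**Figure D2:**
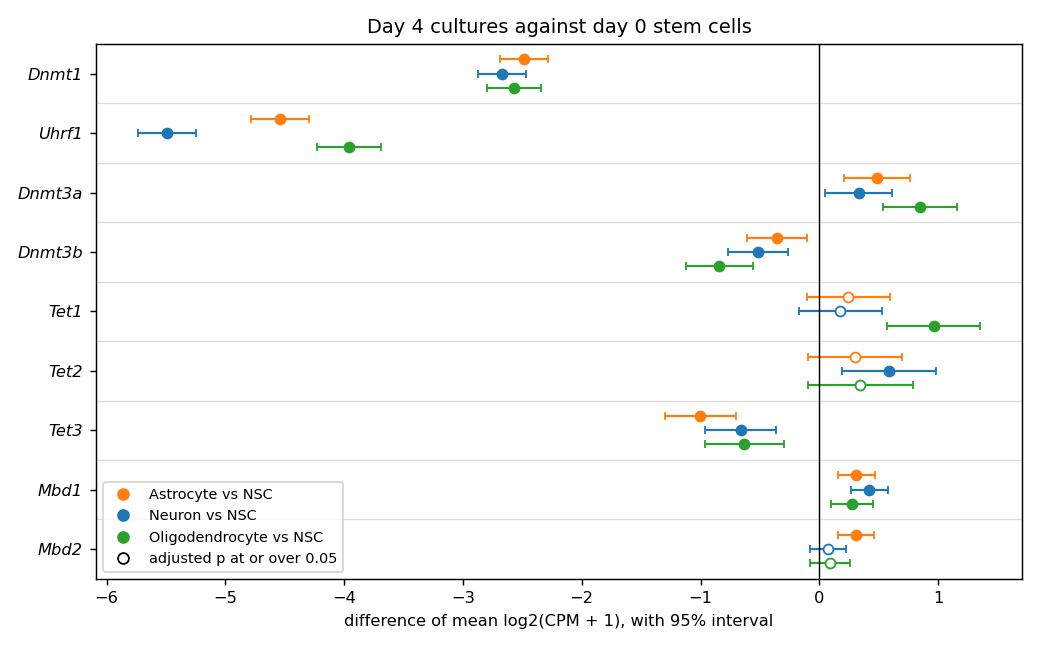
Log2 fold change against NSC (horizontal axis, difference of mean log2(CPM + 1)) of the 9 genes in the Astrocyte, Neuron and Oligodendrocyte groups, with unadjusted 95% intervals, filled where called and open where not. Uhrf1 lies between -5.49 and -3.96 and Dnmt1 between -2.67 and -2.49, while the other 7 genes stay between -1.002 and 0.961.

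The de novo enzymes moved in opposite directions. Dnmt3a was higher than in NSC in every medium, and Dnmt3b was lower. Dnmt3a had 105.5, 110.1 and 90.3 CPM in NSC, 153.4, 146.8 and 129.1 in Astrocyte, 148.5, 99.1 and 142.5 in Neuron, and 179.6 and 188.1 in Oligodendrocyte. Astrocyte and Oligodendrocyte libraries all lay above NSC, but Neuron library 2 lay within the NSC range. The increases were 0.49 (SE 0.129, adjusted p = 0.00328) in Astrocyte, 0.33 (SE 0.129, adjusted p = 0.0298) in Neuron and 0.85 (SE 0.145, adjusted p = 0.000103) in Oligodendrocyte.

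The Neuron call for Dnmt3a was not firm. It was lost with median-of-ratios scaling (0.255, adjusted p = 0.0668), without NSC library 3 (0.246, adjusted p = 0.131), without Neuron library 1 (0.224, adjusted p = 0.132) and without Neuron library 3 (0.253, adjusted p = 0.121), and also with no filter on low genes (adjusted p = 0.0788) and in a fit of these 2 groups alone (adjusted p = 0.0641). Without Neuron library 2 it rose to 0.513 (adjusted p = 1.93e-05). The Astrocyte value was 0.308 with median-of-ratios scaling and stayed called (adjusted p = 0.0312).

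Between day 4 media, Dnmt3a was higher in Oligodendrocyte than in Neuron by 0.52 (SE 0.145, adjusted p = 0.00626), or 0.336 without Neuron library 2 (adjusted p = 0.00331). Its excess over Astrocyte was 0.36 (95% interval 0.05 to 0.68, adjusted p = 0.0501), just short of a call although the libraries did not overlap. That comparison was called, with the same value, in a fit of these 2 groups alone (adjusted p = 0.00242), without Neuron library 1 (adjusted p = 0.034) and without Neuron library 2 (adjusted p = 0.00117). Astrocyte vs Neuron was 0.16 (95% interval -0.12 to 0.44, adjusted p = 0.312).

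Dnmt3b, best known from the early embryo, was the lowest member throughout. It had 3.58, 3.00 and 3.32 CPM in NSC, 2.56, 2.25 and 2.26 in Astrocyte, 1.97, 1.62 and 2.49 in Neuron, and 1.67 and 1.15 in Oligodendrocyte. Every day 4 library lay below every NSC library. Dnmt3b was lower by -0.36 (SE 0.117, adjusted p = 0.0118) in Astrocyte, -0.51 (SE 0.117, adjusted p = 0.00105) in Neuron and -0.84 (SE 0.130, adjusted p = 4.36e-05) in Oligodendrocyte. At this level the size depends on the scale. A pseudocount of 5 gave -0.174, -0.242 and -0.373 and quantile normalization -0.963, -0.896 and -1.42, all called. Without NSC library 1 the Astrocyte fall of -0.31 missed the call (adjusted p = 0.0507).

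Dnmt3b was also lower in Oligodendrocyte than in Astrocyte, by -0.485 (adjusted p = 0.00708), or -0.2 with a pseudocount of 5 (adjusted p = 0.00928), though not without Oligodendrocyte library 2 (-0.329, adjusted p = 0.118). Against Neuron it was lower by -0.33 (adjusted p = 0.0398) with overlapping libraries. That call was lost without Oligodendrocyte library 2 (-0.171, adjusted p = 0.366) and without NSC library 3, Astrocyte library 2, Neuron library 1 or Neuron library 3 (adjusted p 0.053, 0.0509, 0.0617 and 0.152). It was also lost with a pseudocount of 5 (-0.132, adjusted p = 0.0524), with no filter (adjusted p = 0.0933) and in a fit of 2 groups (adjusted p = 0.098), while a pseudocount of 0.1 gave -0.495 (adjusted p = 0.038) and quantile normalization -0.524 (adjusted p = 0.0014). Astrocyte and Neuron differed by 0.16 (95% interval -0.09 to 0.41, adjusted p = 0.256).

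The balance of methyltransferases therefore changed. Per kilobase, Dnmt3a stood at 0.212 ± 0.0223 of Dnmt1 in NSC (SD, n = 3), and above Dnmt1 at day 4, by a ratio of 1.69 ± 0.0685 in Astrocyte (n = 3), 1.73 ± 0.141 in Neuron (n = 3) and 2.30 ± 0.145 in Oligodendrocyte (n = 2). Its ratio to Dnmt3b per kilobase was 13.6 ± 2.16 in NSC, 26.5 ± 1.81 in Astrocyte, 28.2 ± 4.16 in Neuron and 59.2 ± 17.3 in Oligodendrocyte. In both ratios the Astrocyte and Neuron ranges overlapped, and those of NSC and of Oligodendrocyte stood apart.

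The erasers did not move as a family. Tet3 was lower than in NSC in every medium, Tet1 was higher in Oligodendrocyte, and Tet2 was higher in Neuron. Tet3, known for oxidising the paternal genome in the zygote, had 144.6, 149.0 and 121.6 CPM in NSC, 74.8, 69.3 and 61.6 in Astrocyte, 103.8, 65.9 and 95.7 in Neuron, and 88.5 and 88.7 in Oligodendrocyte. All day 4 libraries lay below all NSC libraries. The falls were -1.002 (SE 0.138, adjusted p = 1.24e-05) in Astrocyte, -0.66 (SE 0.138, adjusted p = 0.000538) in Neuron and -0.63 (SE 0.154, adjusted p = 0.00191) in Oligodendrocyte, or 2.00-fold, 1.58-fold and 1.55-fold.

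Tet3 in Astrocyte was below Neuron by -0.34 (adjusted p = 0.0458), with overlapping libraries. This call was lost without any of 8 libraries, namely NSC 1 and 2, Astrocyte 2 and 3, Neuron 1 and 3 and Oligodendrocyte 1 and 2 (adjusted p 0.0522 to 0.195), and the value was -0.213 without Neuron library 1. It was lost too with no filter (adjusted p = 0.116), with 2 groups alone (adjusted p = 0.0885) and with no variance trend (adjusted p = 0.0591), and it was -0.537 (adjusted p = 4.07e-05) without Neuron library 2. Oligodendrocyte exceeded Astrocyte by 0.37 (95% interval 0.04 to 0.70, adjusted p = 0.0599) with no overlap. This was called, with the same value, with 2 groups alone (adjusted p = 0.00267), without Neuron library 1 (adjusted p = 0.0356) and without Neuron library 2 (adjusted p = 0.00152). Oligodendrocyte and Neuron differed by 0.03 (95% interval -0.30 to 0.36, adjusted p = 0.877).

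Tet1, the family's founding member and abundant in embryonic stem cells, had 45.3, 49.3 and 33.6 CPM in NSC, 52.0, 55.7 and 43.4 in Astrocyte, 56.4, 36.0 and 53.6 in Neuron, and 80.8 and 85.3 in Oligodendrocyte. The 2 Oligodendrocyte libraries lay above the other 9, which overlapped between groups. Tet1 was higher in Oligodendrocyte than in NSC by 0.96 (SE 0.182, adjusted p = 0.000262), than in Neuron by 0.785 (SE 0.182, adjusted p = 0.00187) and than in Astrocyte by 0.72 (SE 0.182, adjusted p = 0.00493). Against NSC it had 0.24 in Astrocyte (95% interval -0.11 to 0.60, adjusted p = 0.178) and 0.18 in Neuron (95% interval -0.18 to 0.53, adjusted p = 0.324). Without Neuron library 2 both were called, the Neuron value being 0.375 (adjusted p = 0.00933) and the Astrocyte adjusted p 0.0468. The Astrocyte value itself stayed at 0.24, as that library has no part in it. Astrocyte vs Neuron was 0.07 (95% interval -0.29 to 0.42, adjusted p = 0.739).

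Tet2, which lacks the DNA-binding CXXC domain of its relatives, had 29.8, 31.7 and 23.6 CPM in NSC, 40.0, 34.6 and 30.8 in Astrocyte, 58.3, 30.2 and 44.6 in Neuron, and 37.2 and 34.8 in Oligodendrocyte. In Neuron its libraries spread more, relative to their mean, than those of any other member, and the lowest of them lay within NSC. Tet2 was higher in Neuron than in NSC by 0.59 (SE 0.183, adjusted p = 0.00878), by 0.372 without Neuron library 1 (adjusted p = 0.0439) and by 0.835 without Neuron library 2 (adjusted p = 9.13e-06). In Astrocyte it had 0.30 (95% interval -0.10 to 0.70, adjusted p = 0.142) and in Oligodendrocyte 0.34 (95% interval -0.10 to 0.79, adjusted p = 0.136). These 2 were called, with the same values, in fits of 2 groups (adjusted p = 0.0229 and 0.00595) and without Neuron library 2 (adjusted p = 0.0193 and 0.0174). No pair of day 4 media was called for Tet2 (adjusted p 0.185 to 0.871), but without Neuron library 2 both Astrocyte (-0.535, adjusted p = 0.00126) and Oligodendrocyte (-0.491, adjusted p = 0.00438) were below Neuron.

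**Figure D3:**
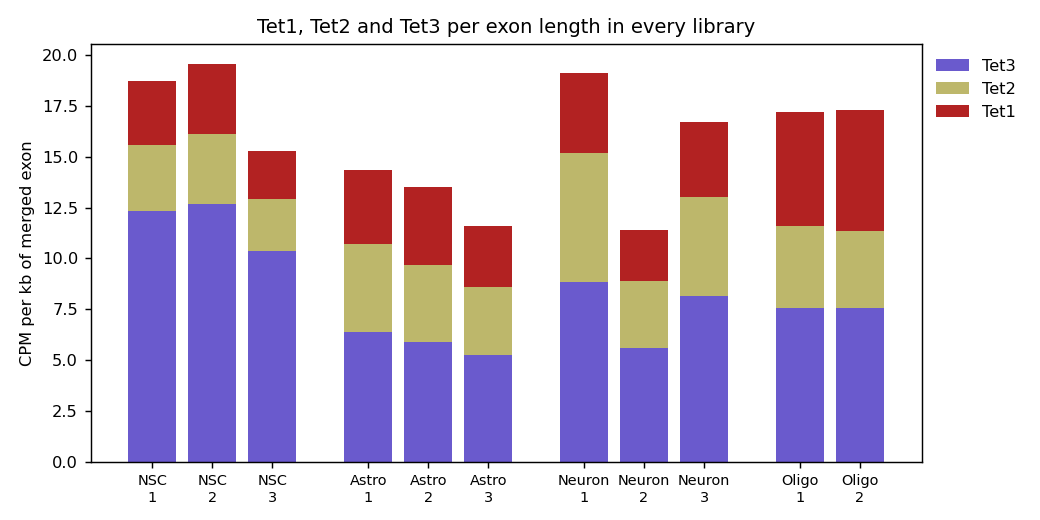
Stacked CPM per kilobase of Tet1, Tet2 and Tet3 in each of the 11 libraries (vertical axis, linear, from 0). Tet3 makes up most of every NSC bar and less of each day 4 bar, and the bar of Neuron library 2 is the shortest.

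Within the family the make-up of the Tet RNA differed more clearly than its amount. Tet3 made up 66.2% ± 1.54 of the summed CPM per kilobase in NSC (SD, n = 3), and 44.4% ± 0.783 in Astrocyte (n = 3), 48.1% ± 1.56 in Neuron (n = 3) and 43.8% ± 0.067 in Oligodendrocyte (n = 2), which overlapped with Astrocyte. The Tet1 share was 16.5% ± 1.137, 26.6% ± 1.76, 21.6% ± 0.938 and 33.5% ± 1.202 in NSC, Astrocyte, Neuron and Oligodendrocyte, with no overlap between groups. The Tet2 share was 17.2% ± 0.401, 29.0% ± 1.28, 30.3% ± 2.47 and 22.7% ± 1.135 in the same order, with overlap only between Astrocyte and Neuron. The sum was 17.8 ± 2.28 CPM per kilobase in NSC, 13.2 ± 1.40 in Astrocyte, 15.7 ± 3.94 in Neuron and 17.2 ± 0.05 in Oligodendrocyte. The Astrocyte range lay below NSC, and Neuron overlapped with all groups. Neuron library 2 had the lowest sum of all libraries (11.4 CPM per kilobase), yet the Tet3 shares of the 3 Neuron libraries stayed between 46.3% and 49.2%.

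Beside the TET genes, a list of 15 genes of base excision repair and demethylation was examined, which also holds Idh1, Idh2 and Ogt, linked to TET activity itself, and 14 could be tested. In Astrocyte 4 were higher and 6 lower than in NSC, in Neuron 4 and 9, and in Oligodendrocyte 3 and 8, with medians of -0.13, -0.42 and -0.32. With median-of-ratios scaling 9 in place of 6 were lower in Astrocyte. Neil3, a glycosylase, fell from 24.6 ± 0.770 CPM in NSC to 0.797 ± 0.110, 0.640 ± 0.121 and 1.83 ± 0.0636 in Astrocyte, Neuron and Oligodendrocyte, changes of -3.84, -3.97 and -3.18. Apex1, the endonuclease that cuts at the vacant site, was lower by -1.28, -1.37 and -1.42. Gadd45a and Gadd45b, stress-induced genes linked to demethylation, were higher, Gadd45a by 2.33, 2.08 and 2.02 and Gadd45b by 1.58, 1.99 and 0.93, the last of which was 0.26 (adjusted p = 0.0772) with quantile normalization. Tdg, the glycosylase that removes oxidised methylcytosine, was named after its values were seen and was lower by -1.06, -1.19 and -0.91.

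Of the readers, Mbd1 and Mbd2 changed little. Mbd1, which binds methylated and, through a zinc finger, unmethylated CpG, had 23.2, 23.2 and 24.3 CPM in NSC, 31.7, 28.7 and 28.1 in Astrocyte, 30.9, 31.0 and 33.6 in Neuron, and 30.7 and 26.8 in Oligodendrocyte. Every day 4 library was above every NSC library. Mbd1 was higher by 0.31 (SE 0.072, adjusted p = 0.00115) in Astrocyte, 0.42 (SE 0.072, adjusted p = 9.9e-05) in Neuron and 0.27 (SE 0.080, adjusted p = 0.00653) in Oligodendrocyte. Only the Neuron call held under all alternatives. With median-of-ratios scaling the Astrocyte value was 0.139 (adjusted p = 0.0507) and the Oligodendrocyte value 0.065 (adjusted p = 0.394). The latter was also lost with quantile normalization (0.146, adjusted p = 0.0632) and without Oligodendrocyte library 1 (0.179, adjusted p = 0.112).

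Between media, Mbd1 was not called in the main model (adjusted p 0.125 to 0.71). Astrocyte vs Neuron was -0.11 (95% interval -0.26 to 0.05). Oligodendrocyte had -0.15 (-0.32 to 0.03) against Neuron and -0.04 (-0.21 to 0.14) against Astrocyte. Both other scalings called Mbd1 lower than in Neuron, in Astrocyte (-0.208, adjusted p = 0.0102 with median-of-ratios and -0.252, adjusted p = 0.00283 with quantile normalization) and in Oligodendrocyte (-0.282, adjusted p = 0.00287 and -0.342, adjusted p = 0.000651). Without Oligodendrocyte library 1 that last difference was -0.241 (adjusted p = 0.0491).

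Mbd2, the methyl-CpG binder of NuRD, had 35.2, 35.2 and 38.0 CPM in NSC, 48.2, 44.5 and 42.7 in Astrocyte, 35.2, 40.6 and 38.3 in Neuron, and 39.3 and 37.6 in Oligodendrocyte. The Astrocyte libraries were above all others. Mbd2 was higher in Astrocyte than in NSC by 0.31 (SE 0.070, adjusted p = 0.000943) and than in Neuron by 0.24 (SE 0.070, adjusted p = 0.00865), and lower in Oligodendrocyte than in Astrocyte by -0.22 (SE 0.078, adjusted p = 0.0285). With median-of-ratios scaling the first 2 were 0.136 (adjusted p = 0.0799) and 0.139 (adjusted p = 0.0946), and quantile normalization lost the second (0.128, adjusted p = 0.118). The third was lost without Astrocyte library 1 or 2 or Oligodendrocyte library 1 or 2 (adjusted p 0.0994, 0.0537, 0.0671 and 0.166). Mbd2 had 0.07 in Neuron (95% interval -0.08 to 0.22) and 0.09 in Oligodendrocyte (95% interval -0.08 to 0.26) against NSC, with adjusted p of 0.358 and 0.307, and 0.02 in Oligodendrocyte vs Neuron (95% interval -0.15 to 0.19, adjusted p = 0.847).

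**Figure D4:**
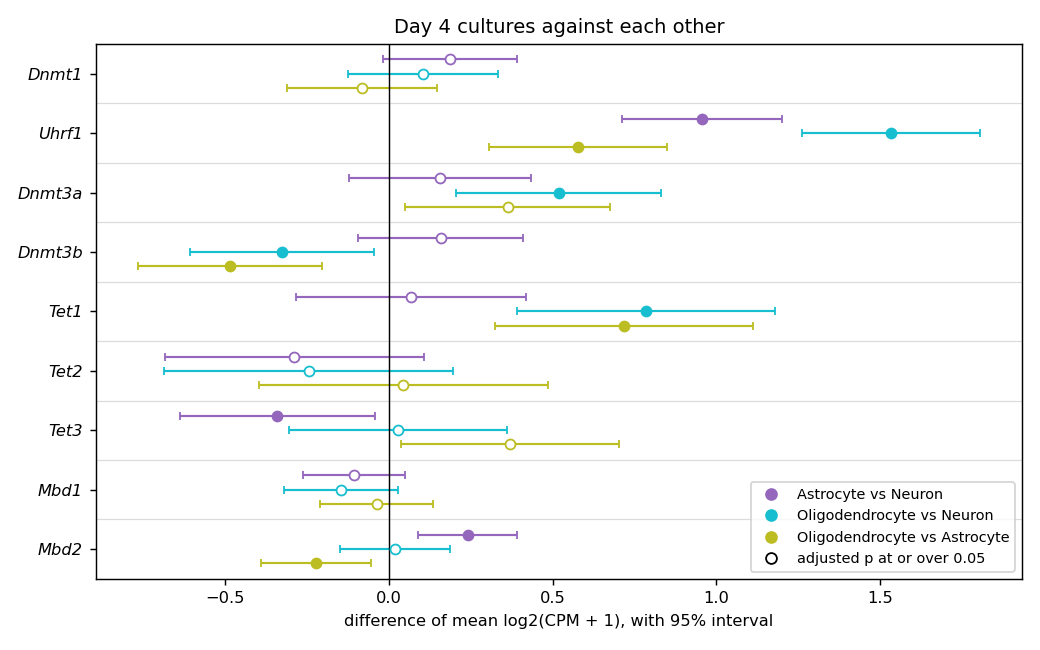
Log2 fold change between day 4 groups (horizontal axis, difference of mean log2(CPM + 1), first-named group minus second) of the 9 genes, with unadjusted 95% intervals, filled where called and open where not. Uhrf1 differs in all 3 comparisons, Tet1 in both that involve Oligodendrocyte, and Dnmt1 in none.

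A list of 8 other genes, of MBD family and zinc finger proteins, was all tested. Not all of these proteins are methyl readers. Against NSC 4 were higher and 1 lower in Astrocyte, 5 and 1 in Neuron and 4 and 1 in Oligodendrocyte, with medians of 0.29, 0.39 and 0.34. The balance depended on the scale, with 3 higher and 3 lower in Oligodendrocyte under median-of-ratios scaling, and 7 higher and 1 lower in Neuron without Neuron library 2. Zbtb4, a zinc finger protein that binds methylated CpG, had the largest change, from 9.29 ± 0.391 CPM in NSC to 38.3 ± 0.594, 37.5 ± 2.00 and 31.0 ± 1.87, or 1.93, 1.90 and 1.63. Its relative Zbtb38 was higher by 0.62, 0.60 and 0.71 and Mbd5 by 0.59, 0.67 and 0.78. Mbd3, which takes the place of MBD2 in NuRD, was lower by -0.50, -0.92 and -0.72.

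NuRD subunits mostly fell. Of 12, all tested, 3 were higher and 8 lower in Astrocyte, 2 and 8 in Neuron and 3 and 8 in Oligodendrocyte, with medians of -0.45, -0.44 and -0.60. Among the exceptions were its alternative motor subunits. Chd5, known from neurons, went from 1.8 ± 0.265 CPM in NSC to 20.9 ± 2.73, 9.82 ± 2.59 and 32.4 ± 0.460, a rise of 2.96, 1.92 and 3.58, and Chd3 was higher by 2.53, 1.28 and 3.2. Rbbp7, a histone chaperone, was lower by -1.29, -1.66 and -1.19, and the deacetylase Hdac2 by -1.55, -1.17 and -1.33.

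Genes that supply the methyl donor, S-adenosylmethionine, were a list of 10 with 9 tested. Against NSC 3 were higher and 5 lower in Astrocyte, 2 and 6 in Neuron, and 3 and 5 in Oligodendrocyte, with medians of -0.56, -0.74 and -0.25. Shmt1 and Shmt2 pass a carbon unit from serine to folate, and Shmt1 went from 64.2 ± 2.62 CPM in NSC to 4.14 ± 0.218, 2.89 ± 0.282 and 6.90 ± 0.269, or by -3.66, -4.07 and -3.04. Shmt2 was lower by -1.68, -2.06 and -1.61. Ahcy, which clears the product that inhibits methyltransferases, was lower by -1.49, -2.08 and -1.66, and Mtr, methionine synthase, by -0.56, -1.13 and -0.73. Compared with Neuron, 8 of 9 genes were higher in Astrocyte and 6 of 9 in Oligodendrocyte, and none was lower in either. Of all tested genes, 40.3% and 43.9% were called higher in these comparisons. In Astrocyte vs Neuron the count was 5 higher and 0 lower with median-of-ratios scaling, and 6 higher and 1 lower with quantile normalization. Without Neuron library 2 it was 6 higher and 0 lower. In Oligodendrocyte vs Neuron both other scalings gave 5 higher and 0 lower.

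Germline genes that are usually silenced by promoter methylation stayed near 0. Of 12, only Ddx4, an RNA helicase of germ cells, was high enough to test. It had 0.677 ± 0.188 CPM in NSC, 2.53 ± 0.317 in Astrocyte, 5.07 ± 0.391 in Neuron and 0.960 ± 0.0566 in Oligodendrocyte. It was higher than in NSC by 1.07 (adjusted p = 2.84e-07) in Astrocyte and 1.86 (adjusted p = 8.64e-10) in Neuron, and had 0.23 in Oligodendrocyte (adjusted p = 0.0791). With quantile normalization the Astrocyte value was 0.39, and Oligodendrocyte turned to a called fall of -0.412 (adjusted p = 0.00615). The 12 genes together summed to 0.83 to 1.15 CPM in NSC and at most 5.58 in any library.

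Per kilobase of merged exon, the order of the members changed between day 0 and day 4. Which transcripts of each gene were present was not examined, so the order within a group depends on that length. In NSC, Uhrf1 (57.0 ± 2.46 CPM per kilobase) and Dnmt1 (48.6 ± 0.760) led, followed by Mbd2 (14.8 ± 0.667), Tet3 (11.8 ± 1.25), Dnmt3a (10.3 ± 1.04), Mbd1 (7.84 ± 0.210), Tet2 (3.08 ± 0.460), Tet1 (2.97 ± 0.568) and Dnmt3b (0.763 ± 0.0672). Tet3 and Dnmt3a overlapped there, as did Tet2 and Tet1. In Astrocyte the first was Mbd2 (18.4 ± 1.15), then Dnmt3a (14.4 ± 1.27), Mbd1 (9.83 ± 0.636), Dnmt1 (8.55 ± 0.515) and Tet3 (5.84 ± 0.563), and only Tet2 (3.81 ± 0.502) and Tet1 (3.503 ± 0.438) overlapped. In Neuron, Mbd2 (15.5 ± 1.11), Dnmt3a (13.1 ± 2.72) and Mbd1 (10.6 ± 0.500) overlapped in turn, as did Dnmt1 (7.56 ± 1.23), Tet3 (7.53 ± 1.70), Tet2 (4.82 ± 1.53) and Tet1 (3.39 ± 0.767). In Oligodendrocyte, Dnmt3a (18.5 ± 0.609) came before Mbd2 (15.7 ± 0.491), and no neighbours overlapped between the 2 libraries. Uhrf1, first in NSC, was the last but Dnmt3b in every day 4 group, at 2.21 ± 0.362, 1.00 ± 0.147 and 3.42 ± 0.430 in Astrocyte, Neuron and Oligodendrocyte.

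Across groups, the neighbours in each member's order of levels that were told apart by a call were few. Uhrf1 had all 3 steps called, from NSC to Oligodendrocyte to Astrocyte to Neuron. Dnmt3b (NSC, Astrocyte, Neuron, Oligodendrocyte) and Tet3 (NSC, Oligodendrocyte, Neuron, Astrocyte) had the first and last of their 3 steps called. Dnmt1, Dnmt3a, Tet1, Mbd1 and Mbd2 had 1 step each, and Tet2 (Neuron, Oligodendrocyte, Astrocyte, NSC) had none.

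Several members deviated from their group means together within a library. Neuron library 2 was below its group mean for Tet2 (-0.491 in log2(CPM + 1)), Tet1 (-0.397), Tet3 (-0.393) and Dnmt3a (-0.366). It was also below for Dnmt1 (-0.27), Dnmt3b (-0.198) and Uhrf1 (-0.191), which have less than 7 kb of exon (6.3, 4.33 and 3.67 kb). In the same library the median of 1549 tested genes with at least 7 kb of exon was -0.231 and that of 2817 genes under 2 kb was 0.112. NSC library 3 was also low for the Tet genes and Dnmt3a, with -0.321 for Tet1, -0.245 for Tet2, -0.086 for long genes and 0.085 for short ones, but not for Dnmt1 (0.011). Astrocyte library 3 had -0.203 for Tet1, -0.099 for long and 0.064 for short genes, and 0.216 for Uhrf1. Neuron library 1 had the opposite, with 0.434 for Tet2, 0.132 for long genes and -0.086 for short ones. Mbd2, with 2.45 kb of exon against 14.4 kb in Tet1, was 0.095 in Neuron library 2. The part of transcript length in the members' values was not tested. Without Neuron library 2 the members called against NSC were 9, 8 and 8 in Astrocyte, Neuron and Oligodendrocyte. Between day 4 media they were 4 in Astrocyte vs Neuron, and in Oligodendrocyte 5 against Neuron and 6 against Astrocyte. Of all genes tested, 86.5%, 84.5% and 83.9% were then called against NSC in Astrocyte, Neuron and Oligodendrocyte, 66.5% in Astrocyte vs Neuron, and for Oligodendrocyte 70.8% against Neuron and 60.2% against Astrocyte. Without this library the members' share thus lay above that of all genes in all 3 comparisons with NSC and in Oligodendrocyte vs Astrocyte. With only 9 members these shares are close to those of all genes, and the excess is not read as a trait of the members.

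**Figure D5:**
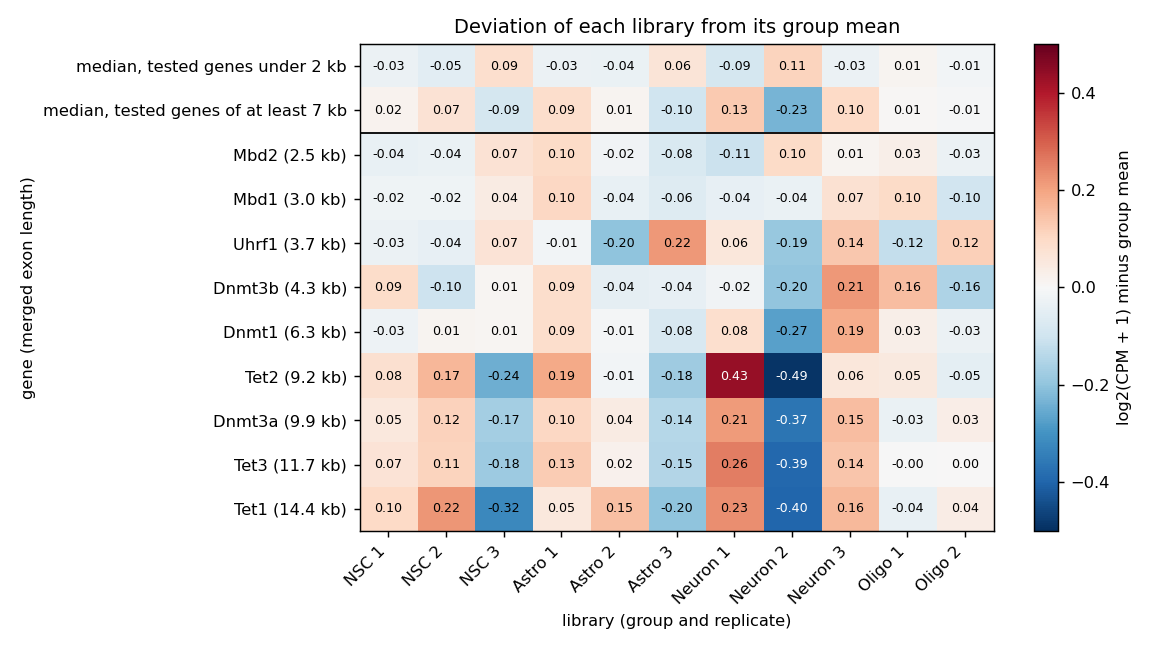
Deviation of each library from its group mean in log2(CPM + 1) (colour) for the median tested gene under 2 kb, the median tested gene of at least 7 kb and the 9 genes ordered by exon length (rows), by library (columns). Neuron library 2, NSC library 3 and Astrocyte library 3 are below their group means for the Tet genes and Dnmt3a and for long genes at large, and above for short genes.

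As a description of pattern, each member was compared with 9372 genes by Pearson r over the 11 libraries. These fall into 4 groups and share library-wide deviations, so r was high for many genes. Nearest to Dnmt1 was Topbp1 (r = 0.9984), with a mean of 208.0 CPM in NSC and at most 41.5 CPM in the day 4 group means. Nearest to Uhrf1 were Ipo5 and Pmf1 (both 0.9988). Dnmt3a was most like Kif1b (0.9898) and Tanc2 (0.981), and Dnmt3b most like Srcap (0.9577) and Sin3a (0.9557). For Tet1 they were Hdac4 (0.978) and Atp7a (0.9719), for Tet2 Syne1 (0.9708) and 4932438A13Rik (0.9666), and for Tet3 Rev3l (0.9919) and Pde10a (0.9893). Mbd1 was closest to Sh3bp5l (0.9771) and Akap8l (0.9724), and Mbd2 to Snx8 (0.9809) and Lamtor3 (0.9743).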

How the data were processed

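Poly(A) RNA was sequenced as 11 Illumina TruSeq Stranded mRNA libraries in 4 groups, per the labels' protocols. The deposited table gives CPM for 37991 genes with their coordinates, rounded by the authors to 2 decimals and named for mouse build mm9, per the file headers. Per the submitters' processing notes, bcl2fastq 1.8.4, TopHat2 2.0.8, HTSeq 0.6.1, edgeR 3.2.4, R 3.0.0, HOMER and build NCBIM37 were used, with no role or order given. The strand setting of the counting, the annotation release and any filter: not given in the sources used here. The listed genes summed to 74.95% to 80.25% of the CPM scale. Rounding left 24.4% to 61.5% of low values within 0.1 of a whole read, so no count test was run.

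From these values log2(CPM + 1) was computed, and the 13342 genes that reached 1 CPM in 2 or more libraries were fitted with limma 3.58.1 in R 4.3.3, 1 mean per group, eBayes with trend, 7 residual and 5.96 prior degrees of freedom. The 6 pairs of groups were tested two-sided, with Benjamini-Hochberg adjustment over all genes in each, and intervals of 95% are unadjusted. The script was tested on simulated data. Exon lengths are merged exons of GENCODE M21 (GRCm38), at hand for 97.6% of tested genes. Ratios, shares and orders of genes per kilobase depend on these lengths. Promoters came from the RefSeq table (GRCm38.p6). Figures were drawn with matplotlib 3.10.9.

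The 9 genes and all lists were chosen with earlier results of these data known. Beside the 9 genes, the text names the 2 genes most alike to each (mean of at least 10 CPM) and at most 4 of each pathway list and 2 of each marker list with the largest change against NSC, and says where it goes beyond; some genes under this rule are not reported here. The marker lists' other genes are given as sums, and Map2, Rbfox3, Idh1, Idh2 and Ogt were named after their values were seen. The labels give no batch or date and do not tie replicates to separate cultures, so p-values measure the spread between these libraries, which may be technical. Replicate numbers were not taken to pair libraries, because the labels do not tie them to a shared culture. Deviations correlated by over 0.1 in 6 of 15 same-numbered pairs and in 7 of 30 pairs with other numbers. Alternatives were pseudocounts, no filter, 2 other scalings, no variance trend, fits of 2 groups, the replicate block and leaving out each library. For the lists, the 2 scalings and leaving out Neuron library 2 were chosen after seeing the data.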

Additional observations from a re-analysis of the deposited data

Results flagged for a closer look

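The 9 genes and the pathway lists, 75 genes together, were searched for called changes against NSC that pointed in opposite directions in different media. Those of them too low to test could show none. There was 1, and it was no member. Mthfd1, a folate enzyme of the methyl donor list, had 140.5 ± 6.35 CPM in NSC (SD, n = 3), 135.5 ± 2.83 in Astrocyte (n = 3), 83.5 ± 3.25 in Neuron (n = 3) and 164.8 ± 4.65 in Oligodendrocyte (n = 2). Against NSC it was lower in Neuron by -0.74 (limma adjusted p = 2.2e-08) and higher in Oligodendrocyte by 0.23 (adjusted p = 0.00404). The difference between those media, tested directly, was 0.97 (adjusted p = 2.01e-08). The rise in Oligodendrocyte rests on the scale: with median-of-ratios scaling it was 0.013 (adjusted p = 0.857), and the median of all genes in that comparison was 0.19.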

How the results depend on the processing

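For the 54 values (9 genes in 6 comparisons), 20 alternatives were run. Of 32 calls, 22 held under every alternative, among them all calls of Uhrf1, of Dnmt1 and Tet3 against NSC, and of Tet1 in Oligodendrocyte. Over these calls and alternatives, 601 results kept the call and 39 lost it, with no reversal. For the 22 uncalled values, 20 of the alternative results were called and 26 had the other sign, the cause of which was not tested. With median-of-ratios scaling the sign changed for Mbd2 in Neuron (-0.003) and Oligodendrocyte (-0.123) vs NSC, for Tet1 in Astrocyte vs Neuron (-0.035), and for Dnmt1 (-0.034), Tet3 (-0.111) and Mbd2 (-0.12) in Oligodendrocyte vs Neuron. With quantile normalization it changed for Mbd2 in Oligodendrocyte vs NSC (-0.031), for Dnmt3b (-0.067) and Tet1 (-0.027) in Astrocyte vs Neuron, for Dnmt1 (-0.074), Tet3 (-0.11) and Mbd2 (-0.177) in Oligodendrocyte vs Neuron, and for Tet2 in Oligodendrocyte vs Astrocyte (-0.012). Without Neuron library 2 it changed for Dnmt3a (-0.027) and Tet1 (-0.131) in Astrocyte vs Neuron and for Dnmt1 (-0.03) and Tet3 (-0.168) in Oligodendrocyte vs Neuron. Leaving out other libraries did so for Tet1 in Astrocyte vs Neuron (-0.007 without Astrocyte 2), Mbd2 in Oligodendrocyte vs Neuron (-0.035 without Neuron 1, -0.013 without Oligodendrocyte 1), and, in Oligodendrocyte vs Astrocyte, Tet2 (-0.044 without Astrocyte 3, -0.002 without Oligodendrocyte 1) and Mbd1 (0.013 without Astrocyte 1, 0.057 without Oligodendrocyte 2). When a library was left out, the members called ranged from 6 to 9 in Astrocyte, 6 to 8 in Neuron and 6 to 8 in Oligodendrocyte vs NSC, 2 to 4 in Astrocyte vs Neuron, 3 to 5 in Oligodendrocyte vs Neuron and 2 to 6 in Oligodendrocyte vs Astrocyte, where 2 was the count without Oligodendrocyte library 2, which left that group with 1 library whose spread was taken from the other groups. In the same fits 80.4% to 86.5%, 79.9% to 84.5%, 73.5% to 83.9%, 56.4% to 66.5%, 56.6% to 70.8% and 37.0% to 60.2% of all genes were called. With median-of-ratios scaling the members called were 5, 6, 6, 3, 5 and 4 and with quantile normalization 7, 7, 6, 3, 5 and 4, in the same order of comparisons. With the replicate number as a block, which the labels do not tie to a shared culture, the counts were 7, 7, 7, 3, 4 and 3 in the same order. The block changed the call of Mbd2 in Oligodendrocyte vs Astrocyte (adjusted p = 0.0535) and the sign of 2 uncalled values, Tet3 in Oligodendrocyte vs Neuron (-0.003) and Tet2 in Oligodendrocyte vs Astrocyte (-0.017). For the values that changed sign when a library was left out, the range over such fits was -0.027 to 0.262 for Dnmt3a and -0.131 to 0.184 for Tet1 in Astrocyte vs Neuron. For Oligodendrocyte against Neuron it was -0.03 to 0.198 for Dnmt1, -0.168 to 0.156 for Tet3 and -0.035 to 0.065 for Mbd2, and in Oligodendrocyte vs Astrocyte -0.044 to 0.139 for Tet2 and -0.134 to 0.057 for Mbd1. Depth limits mainly Dnmt3b, at 73 to 107 estimated reads in Oligodendrocyte.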
